A study of Mus musculus with 8 samples.

Results

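The CCN matricellular genes Cyr61, Ctgf, Nov, Wisp1 and Wisp2 were followed through 8 RNA-sequencing libraries of fibroblasts from healing mouse infarcts. They were taken from the gene table by name, as 5 of its 54532 genes, under the older symbols the table uses. The current names are Ccn1 for Cyr61, Ccn2 for Ctgf, Ccn3 for Nov, Ccn4 for Wisp1 and Ccn5 for Wisp2. The family's remaining gene, Wisp3 (Ccn6), was listed at 0.0308 to 0.149 FPKM in the 8 libraries, below the level used for testing, and is not followed here.

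The study asked what the loss of the TGF-β type 2 receptor, encoded by Tgfbr2 and written TbR2 in the labels, does to the transcripts of infarct fibroblasts. The 4 libraries labelled FTbR2KO came from mice in which that receptor was to be deleted in fibroblasts by tamoxifen, and the 4 labelled TbR2fl/fl from controls carrying the floxed gene. The controls had tamoxifen as well. All cells came from the heart 7 days after a coronary artery was occluded and were sorted on PDGFRα, a growth factor receptor on fibroblasts, without culture, so cells lacking it at the surface were not collected. The driver of the deletion and the age of the mice are not given in the sources used here. Nor do the labels state that each library stands for its own mouse. The p-values therefore cover only the differences among these libraries, which may be technical. Libraries carry their title numbers, 1 to 4 for FTbR2KO and 5 to 8 for TbR2fl/fl.

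The targeted gene did not follow its label. Tgfbr2 measured 60.0, 58.2, 56.9 and 57.8 FPKM in the libraries labelled FTbR2KO and 49.6, 40.4, 46.7 and 45.4 FPKM in the controls. Every library labelled FTbR2KO was thus above every control (58.2 ± 1.30 against 45.5 ± 3.86 FPKM, SD, n = 4 each, exact two-sided permutation p = 0.0286, the smallest that 4 against 4 can give). Groups that did not overlap were found in 4.41% of all tested genes, and the limma adjusted p of Tgfbr2 was 0.571. A value over the whole gene cannot show whether an exon was removed. Pdgfra, the sorted marker, measured 65.9 ± 13.5 FPKM in FTbR2KO and 57.6 ± 12.2 FPKM in the controls (SD, n = 4). All 8 fibroblast markers passed 1 FPKM in at least 4 libraries, whereas 5 of 8 macrophage and leukocyte markers, Ptprc and Adgre1 among them, stayed under 1 FPKM in every library. The other 3, Cd68, Lyz2 and Cd14, reached 1 FPKM in at least 4 libraries. So did 7 of 8 mesothelial and 7 of 8 pericyte and smooth muscle markers. The libraries held 16.1 to 22.9 M reads in FTbR2KO and 21.2 to 28.7 M in the controls. In bulk RNA, fewer cells that make a transcript and less of it per cell cannot be told apart.

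CCN proteins are secreted, cysteine-rich modular proteins that sit in the extracellular matrix without serving mainly as structural fibres. They bind integrins, heparan sulfate proteoglycans and growth factors, and so alter how cells attach, migrate and respond to TGF-β, BMP, VEGF and Wnt signals. Cyr61 and Ctgf are classical targets of the mechanosensitive coactivators YAP and TAZ, which act with TEAD factors, and of serum response factor (SRF) with its coactivators, the MRTFs. Ctgf is also a much used read-out of TGF-β signalling in fibrosis, whereas Nov is often described as opposing Ctgf. Wisp1 and Wisp2 were named as Wnt1-inducible proteins, and Wisp2 lacks the C-terminal cystine-knot module that the other family members carry.

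One of the 5 members, Cyr61, had an entry in RefSeq's promoter table (as Ccn1, GRCm38.p6). Its upstream stretch is shown because TEAD-driven genes form one of the groups compared with the family below. The 250 bases before the annotated start lie on the minus strand of chromosome 3, at chr3:145649986-145650235, and 54.8% of them are G or C. Capitals mark the one match to the TEAD motif GGAATG, which reads on this strand as CATTCC and begins 103 bases before the start.
Cyr61: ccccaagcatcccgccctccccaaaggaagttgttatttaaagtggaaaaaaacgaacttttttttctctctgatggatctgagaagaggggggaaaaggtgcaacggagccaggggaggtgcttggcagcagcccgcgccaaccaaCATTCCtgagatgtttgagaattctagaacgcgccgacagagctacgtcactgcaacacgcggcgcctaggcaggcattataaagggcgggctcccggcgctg
Searched on both strands, the motif was present in 12.6% of the 32851 promoters of the same length. The window held no match to the Smad motif CAGAC (present in 42.2% of all promoters), the AP-1 motif TGANTCA (6.75%), the CArG box bound by SRF (1.47%) or the TCF/LEF motif CTTTGA (13.8%). A match is only a run of letters, and its absence says nothing about a factor outside this window.

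The family divided into highly and moderately expressed members. FPKM is a fragment count divided by the length of the gene and by a size factor of the library, so levels can be set side by side between genes. In the deposited values that factor was not the read total alone, since median-of-ratios factors were already 1 in each library. Averaged over the 8 libraries, Ctgf stood at 886 FPKM, Cyr61 at 724 FPKM and Wisp2 at 311 FPKM, ranks 24, 34 and 110 among the 11667 genes tested. Wisp1 at 26.4 FPKM and Nov at 22.5 FPKM held ranks 1424 and 1707. Read support was high even for Nov, with 940 to 1799 reads per library, and reached 26957 to 108799 for Ctgf.

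Of the 4 steps in this order, 2 were found in 8 of 8 libraries. Cyr61 exceeded Wisp2 by a geometric mean of 2.36 times (range 1.58 to 3.36), and Wisp2 exceeded Wisp1 by 11.7 times (9.91 to 13.6). The exact two-sided sign-flip p was 0.00781 for each, the smallest that 8 libraries can give (0.0156 adjusted over the 4 neighbouring pairs). The other neighbours did not differ beyond their spread. Ctgf exceeded Cyr61 in 5 of 8 libraries, with a ratio from 0.794 to 1.81 and an exact adjusted p of 0.172. Wisp1 exceeded Nov in 5 of 8 libraries, at ratios of 0.77 to 1.80, with the same adjusted p.

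**Figure D1:**
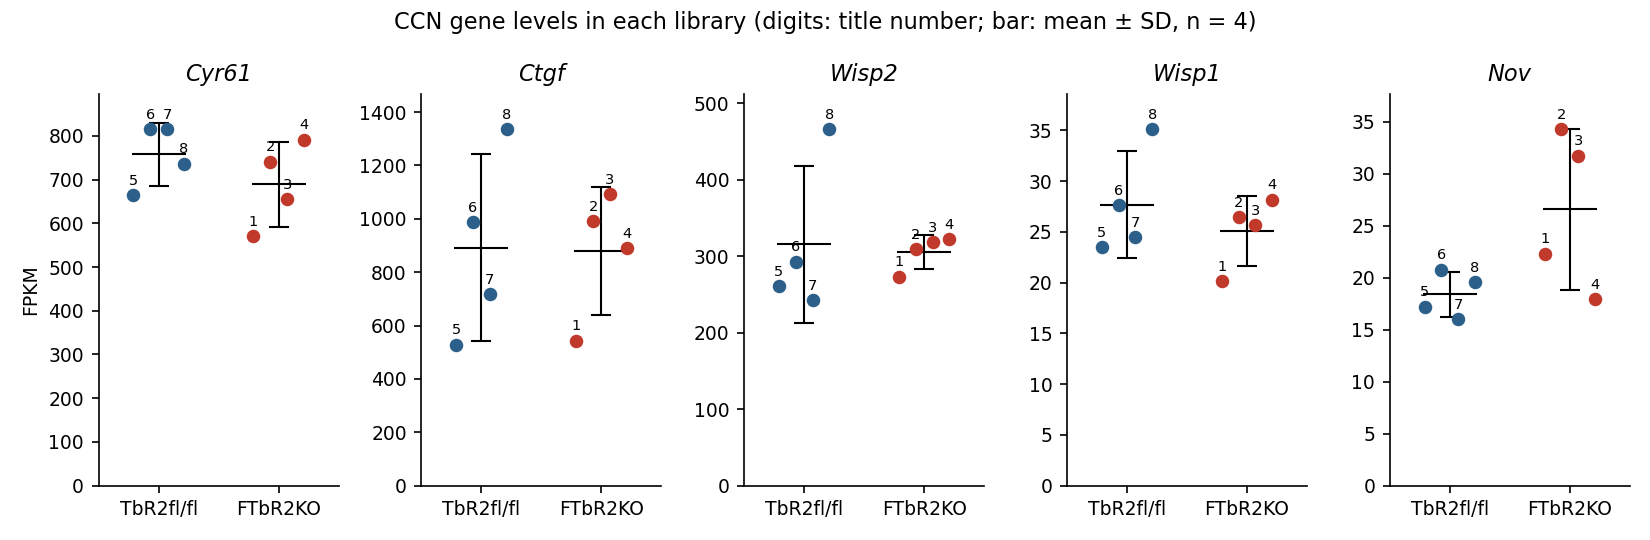
FPKM of each CCN gene (vertical axes, each starting at 0) in every library by genotype label; digits are title numbers, bars are the mean ± SD of 4. The groups overlap for each gene, and 3 of 4 FTbR2KO libraries lie above all controls for Nov alone.

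With the libraries labelled FTbR2KO set against the controls, no CCN gene passed the threshold. Differences were tested with limma on log2(FPKM + 1) over the genes with at least 1 FPKM in at least 4 libraries, at a Benjamini-Hochberg adjusted p of 0.05. All 5 members entered the test and 0 of 5 passed. Across all 11667 genes 0.0171% passed, both higher in FTbR2KO. These 2 genes, named because they are the whole count, were Prm1 and Gpt2. At an unadjusted p under 0.05, 436 genes were higher and 568 lower, and Nov was the 1 member among them. By voom on the reads recovered from the FPKM, 0 of 5 members passed as well. No member had groups that did not overlap, against 4.41% of all tested genes.

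Nov, encoded on chromosome 15 (54745702 to 54754039, plus strand, GRCm38), had the widest separation. Its levels were 22.3, 34.3, 31.7 and 17.9 FPKM in FTbR2KO 1 to 4 and 17.2, 20.8, 16.0 and 19.6 FPKM in TbR2fl/fl 5 to 8. Of the FTbR2KO libraries, 1, 2 and 3 were above every control, whereas FTbR2KO 4 lay among the controls. The means were 26.6 ± 7.72 and 18.4 ± 2.17 FPKM (SD, n = 4), a ratio of 1.45. The log2 fold change was 0.47 (SE 0.19, 95% interval 0.04 to 0.90), with a limma p of 0.0366 that became 0.571 after adjustment. The exact permutation p was 0.114. Without FTbR2KO 4 the fold change was 0.64, and without FTbR2KO 2 it was 0.34.

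Ctgf, encoded on chromosome 10 (24595442 to 24598683, plus strand), had nearly equal group means and a wide spread within each. It measured 543, 991.5, 1092 and 889.6 FPKM in FTbR2KO and 528, 988, 718 and 1336 FPKM in the controls. The highest and the lowest library were both controls, TbR2fl/fl 8 and 5, and FTbR2KO 1 was nearly as low as the latter. The means were 879 ± 239 and 892 ± 351 FPKM (SD, n = 4). The log2 fold change was 0.02 (SE 0.31, limma adjusted p = 0.993), and its 95% interval from -0.68 to 0.72 leaves room for a change of that size in either direction. An antisense gene that overlaps Ctgf, Gm15270, was listed at no more than 0.213 FPKM.

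Cyr61, encoded on chromosome 3 (145646976 to 145649981, minus strand), is an angiogenic, integrin-binding protein and an immediate-early gene. Its levels were 570.4, 741, 656 and 791 FPKM in FTbR2KO and 664, 815, 815 and 736.5 FPKM in the controls. FTbR2KO 1 and 3 fell below all controls, while FTbR2KO 2 and 4 lay among them. The means were 689.7 ± 97.3 and 758 ± 72.4 FPKM (SD, n = 4). The log2 fold change of -0.14 (SE 0.14, 95% interval -0.46 to 0.18) had a limma adjusted p of 0.783.

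Wisp1, encoded on chromosome 15 (66891320 to 66923201, plus strand), is a fibroblast growth and matrix factor. It measured 20.1, 26.4, 25.7 and 28.2 FPKM in FTbR2KO and 23.5, 27.6, 24.4 and 35.1 FPKM in the controls. The lowest level was that of FTbR2KO 1 and the highest that of TbR2fl/fl 8, and the other 6 libraries overlapped. The means were 25.1 ± 3.47 and 27.7 ± 5.27 FPKM (SD, n = 4). The log2 fold change of -0.13 (SE 0.15, 95% interval -0.46 to 0.20) had a limma adjusted p of 0.815.

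Wisp2, encoded on chromosome 2 (163820861 to 163833146, plus strand), stood at 273, 309, 318.5 and 322 FPKM in FTbR2KO. The controls measured 261, 293, 242 and 466 FPKM. TbR2fl/fl 8 stood apart at the top, and the other 3 controls were lower than 3 of the FTbR2KO libraries. The means were 306 ± 22.3 and 316 ± 103 FPKM (SD, n = 4), and the log2 fold change was 0.00 (SE 0.20, 95% interval -0.44 to 0.44, limma adjusted p = 0.998).

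On the TPM scale the median fold change of all genes was 0.15 on the log2 scale, a rise of 0.156, and the values of Cyr61 and Wisp1 then came to 0.03 and 0.03. Relative to that median, Cyr61 stood at -0.13, Wisp1 at -0.12, Ctgf at 0.03, Wisp2 at 0.02 and Nov at 0.50, each with its sign on the FPKM scale. Over 17 alternative settings the smallest adjusted p of any member was 0.215, for Nov, whose fold change ranged from 0.34 to 0.65 and kept its sign.

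**Figure D2:**
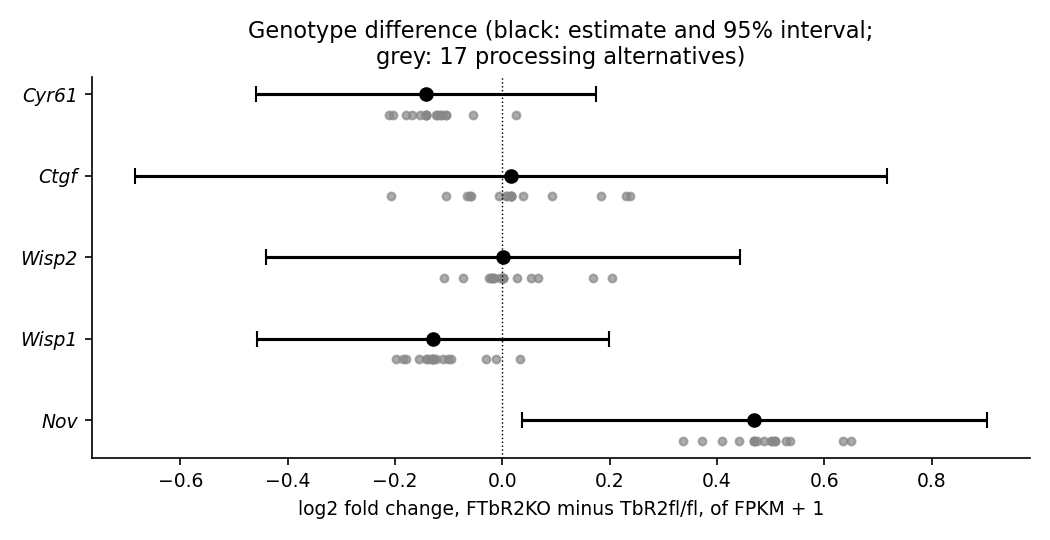
Log2 fold change of FPKM + 1, FTbR2KO minus TbR2fl/fl (horizontal axis), for each CCN gene; black points and bars are the limma estimate and 95% interval, grey points the 17 alternative settings. The interval of Nov, 0.04 to 0.90, lies above 0 before adjustment, and the other 4 intervals span 0.

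Taken as shares of the summed FPKM of the 5 members, Ctgf and Cyr61 made up most of the family's transcript in each library. Ctgf held 45.0% ± 5.71 in FTbR2KO and 43.1% ± 7.13 in the controls, and Cyr61 36.2% ± 4.04 and 38.9% ± 7.70 (SD, n = 4). Wisp2 followed with 16.1% ± 2.04 and 15.6% ± 2.45. The share of Wisp1 was the steadiest, from 1.21% to 1.57% over the 8 libraries. Nov took 1.56%, 1.63%, 1.49% and 0.876% in FTbR2KO and 1.15%, 0.968%, 0.882% and 0.754% in the controls, so again FTbR2KO 4 alone lay among the controls. The order of the pair of moderate genes moved accordingly. The ratio of Wisp1 to Nov was 0.903, 0.77, 0.809 and 1.57 in FTbR2KO and 1.37, 1.33, 1.53 and 1.80 in the controls (exact permutation p = 0.114, a comparison made after the values were seen). The summed level of the family ran from 1429 to 2124 FPKM in FTbR2KO and from 1494 to 2593 FPKM in the controls, so the groups overlapped.

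The members differed more in how steady they were between libraries of one genotype. Ctgf had a within-group SD of 0.517 on the log2 scale, larger than that of 96.2% of the 52 genes within 1 log2 unit of its level, whose median SD was 0.226. Its highest level was 2.53 times its lowest. Nov was similarly variable, with an SD of 0.319, above 91.1% of 2661 genes of like level. Wisp1 (SD 0.229, above 74.3%) and Wisp2 (SD 0.309, above 72.9%) lay in between. Cyr61 was steadier than most, with an SD of 0.178, above 18.1% of 72 genes of like level. The 2 classical YAP and TEAD targets of the family thus had unlike spreads at similar levels. The ratio of Ctgf to Cyr61 was 0.951, 1.34, 1.67 and 1.12 in FTbR2KO and 0.794, 1.21, 0.882 and 1.81 in the controls, with no separation of the genotypes (exact permutation p = 0.6, computed after the values were seen).

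The highest correlations between members over the 8 libraries were those among Ctgf, Wisp1 and Wisp2. Of the 10 pairs of members, 1 passed an adjusted p of 0.05. Ctgf and Wisp1 had Pearson's r = 0.862 (exact permutation p = 0.00389, adjusted p = 0.0389) and Spearman's rho = 0.738 (exact permutation p = 0.0458, adjusted p = 0.153). Wisp1 and Wisp2 had r = 0.841 (exact adjusted p = 0.0569) and rho = 0.810, and Ctgf and Wisp2 r = 0.787 (exact adjusted p = 0.0523) and rho = 0.786. With each library taken as its deviation from its own group mean, these 3 pairs had r of 0.912, 0.885 and 0.788 in that order, with exact adjusted p of 0.0119, 0.0119 and 0.0355. The common pattern was a low level in FTbR2KO 1 and TbR2fl/fl 5 and a high one in TbR2fl/fl 8, although Wisp2 was lowest in TbR2fl/fl 7.

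Without FTbR2KO 1 and TbR2fl/fl 5, the 2 libraries farthest from the median of Ctgf, r was 0.779 for Ctgf and Wisp1, 0.911 for Ctgf and Wisp2 and 0.935 for Wisp1 and Wisp2. The call for Ctgf and Wisp1 was then lost (exact adjusted p = 0.274, 6 libraries), as it was without any one of FTbR2KO 1 or 2 or TbR2fl/fl 5, 6 or 8, which left r between 0.799 and 0.899. For Wisp1 and Wisp2, r fell to 0.578 without TbR2fl/fl 8. Cyr61 and Ctgf had r = 0.466 over 8 libraries (exact adjusted p = 0.477) and rho = 0.0952. Their r was 0.115 without FTbR2KO 1, 0.405 without TbR2fl/fl 5 and -0.59 without both. Cyr61 and Wisp1 had r = 0.591 and rho = 0.5 (exact adjusted p of r = 0.322), with r from 0.212 without FTbR2KO 1 to 0.809 without TbR2fl/fl 8 and -0.0624 without FTbR2KO 1 and TbR2fl/fl 5. Whether the correlations of one pair differ from those of another was not tested. Nov had r of -0.0364 with Wisp1, 0.187 with Wisp2, 0.388 with Ctgf and -0.296 with Cyr61, each with an exact adjusted p of at least 0.567.

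**Figure D3:**
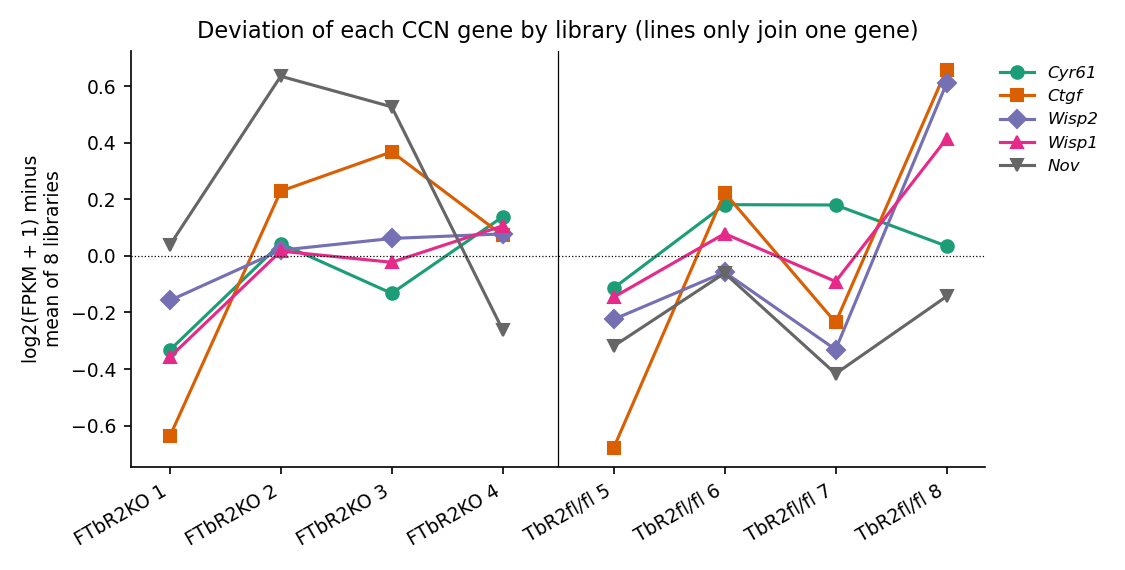
Deviation of log2(FPKM + 1) from the mean of the 8 libraries (vertical axis) for each CCN gene in each library (horizontal axis; lines join one gene and imply no order). Ctgf, Wisp1 and Wisp2 are low in FTbR2KO 1 and TbR2fl/fl 5 and high in TbR2fl/fl 8, and Nov is high in FTbR2KO 2 and 3.

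To see which genes the members varied with, each was compared with the mean log2(FPKM + 1) of 8 gene lists, 40 relations in all. Ctgf followed the SRF and MRTF target genes, which encode the contractile and actin-linked proteins of myofibroblasts, most closely. Pearson's r was 0.958 (exact permutation p = 0.000298, adjusted p = 0.0119) and Spearman's rho was 0.881 (exact permutation p = 0.00724, adjusted p = 0.143). Over the 6 libraries without FTbR2KO 1 and TbR2fl/fl 5, r was 0.949, with an exact adjusted p of 0.185. With 6 libraries the smallest possible exact p, adjusted over 40 relations, stays above 0.05 for a relation alone. The adjusted p of 6 libraries therefore cannot decide whether a relation with a list was lost. Leaving out single libraries gave r of 0.940 to 0.979 and an exact adjusted p of 0.0317 to 0.0595, above 0.05 without FTbR2KO 2, FTbR2KO 3 or TbR2fl/fl 8.

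Most single genes of that list show the same pattern. Acta2, the smooth muscle actin that marks myofibroblasts, measured 103, 269, 261 and 217 FPKM in FTbR2KO and 139, 293, 160 and 367 FPKM in the controls, with r = 0.963 to Ctgf. Tpm1, a tropomyosin, had r = 0.969. Of the 12 genes of the list, 10 had r above 0.7 with Ctgf, and the median was 0.907. Filip1l had the lowest value, 0.0228. The contractile genes Tagln (r = 0.555) and Cnn1 (r = 0.743) were expressed near the 1 FPKM of the filter. Tagln measured 1.09 to 3.34 FPKM and Cnn1 1.03 to 2.86 FPKM. Among the 11666 other tested genes, 17.4% had an r above 0.7 with Ctgf and the median was 0.0929.

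Ctgf also followed the receptors to which CCN proteins bind, with r = 0.905 (exact adjusted p = 0.0341) and rho = 0.929 (exact adjusted p = 0.0893). Integrins carried this relation, with r of 0.973 for Itgb1, 0.952 for Itga5, 0.932 for Itgb3 and 0.918 for Itgav, whereas the endocytic receptor Lrp1 had 0.0671 and the Wnt co-receptor Lrp6 -0.0233. Itga5, the fibronectin receptor subunit, measured 27.9, 38.9, 53.4 and 43.4 FPKM in FTbR2KO and 28.3, 51.1, 38.7 and 59.5 FPKM in the controls. Without FTbR2KO 1 and TbR2fl/fl 5 the list's r was 0.690. Its exact adjusted p was 0.306, which 6 libraries could hardly bring under 0.05 at any r. Leaving out single libraries gave r of 0.864 to 0.945, and the adjusted p stayed under 0.05 only without TbR2fl/fl 6 (0.0476, exact).

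Wisp1 followed 2 lists. With the SRF and MRTF targets r was 0.896 (exact adjusted p = 0.0341) and rho 0.857 (exact adjusted p = 0.143), and 9 of 12 genes had an r above 0.7, led by Tpm2 (0.929) and Myl9 (0.922). With genes induced by TGF-β r was 0.842 (exact adjusted p = 0.0379) and rho 0.810 (exact adjusted p = 0.186). In that list 5 of 14 genes exceeded 0.7, among them the protease inhibitor Timp1 (0.892) and the matrix protein Ltbp2 (0.871), and Tgfbi had -0.592. Ctgf had r = 0.867 with the same list but missed the threshold (exact adjusted p = 0.0597), and its r was 0.434 without FTbR2KO 1 and TbR2fl/fl 5. The share of all other tested genes above 0.7 was 13.2% for Wisp1. Without FTbR2KO 1 and TbR2fl/fl 5 the r were 0.758 and 0.694, each with an exact adjusted p of 0.306, again from only 6 libraries. Leaving out single libraries gave 0.817 to 0.924 for the first list, with an exact adjusted p under 0.05 only without FTbR2KO 4 (0.0476). For the second list it gave 0.715 to 0.883, under 0.05 only without TbR2fl/fl 7 (0.0317, exact).

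Cyr61, Nov and Wisp2 had no relation that passed. Cyr61 had r = 0.827 with the TGF-β induced genes (exact adjusted p = 0.0621), which fell to 0.421 without FTbR2KO 1 and TbR2fl/fl 5. With the immediate-early genes, which tissue dissociation can also raise, Cyr61 had r = 0.702 (exact adjusted p = 0.193) and rho = 0.786 (exact adjusted p = 0.186). Nov had r = 0.829 with the other YAP and TEAD targets (exact adjusted p = 0.0597), Ctgf 0.288 and Cyr61 -0.198. The mean of that list moved little, from 3.7 in TbR2fl/fl 5 to 4.0 in FTbR2KO 2. Within it, Igfbp3 ran from 15.9 FPKM in TbR2fl/fl 8 to 171 FPKM in FTbR2KO 1. How far the 3 r values rest on Igfbp3 was not tested. Without FTbR2KO 1, r was 0.844 for Nov, 0.503 for Ctgf and -0.0417 for Cyr61. The 6 Wnt target genes tested, of 14 listed, gave r of -0.26 to -0.057 over the 5 members. Their mean also moved little, from 2.54 in TbR2fl/fl 6 to 2.76 in FTbR2KO 1 and FTbR2KO 4. Whether Wnt signalling bears on Wisp1 or Wisp2 was not tested.

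A sum of markers of another cell type moved with Ctgf, though not all of its genes did. The summed FPKM of 8 pericyte and smooth muscle markers was 99.0, 139, 146 and 119 in FTbR2KO and 111, 129, 116 and 176 in the controls, and 7 of the 8 reached 1 FPKM in at least 4 libraries. Against this sum Ctgf had r = 0.922 (exact permutation p = 0.00067, adjusted p = 0.0234 over 35 relations computed after the data were seen) and rho = 0.976 (exact permutation p = 0.000397). Without FTbR2KO 1 and TbR2fl/fl 5 r was 0.944, with an exact adjusted p of 0.0729. Leaving out single libraries gave 0.889 to 0.957, with an exact adjusted p above 0.05 without FTbR2KO 1, FTbR2KO 2, TbR2fl/fl 6 or TbR2fl/fl 8. Ndufa4l2 alone made up 46.5% to 63.4% of the sum. Of the 7 tested markers 3 had an r above 0.7, Ndufa4l2 (0.841), Cspg4 (0.848) and Notch3 (0.828), and the median was 0.554. Rgs5 had 0.554 and Kcnj8 0.321, whereas the smooth muscle myosin Myh11, at 1.09 to 2.29 FPKM, had an r of 0.0118 and the pericyte channel subunit Abcc9 -0.515. Wisp1 and Wisp2 had r of 0.871 and 0.845 with the sum (exact adjusted p = 0.11 each). The part of these cells in the levels of Ctgf, Wisp1 and Wisp2 was not tested. Cyr61 had r = -0.809 with the summed mesothelial markers (exact adjusted p = 0.11) and rho = -0.929 (exact permutation p = 0.00223, not adjusted). That sum ranged from 4.50 to 39.5 FPKM in FTbR2KO and from 0.795 to 25.6 FPKM in the controls. The other sums were 19.4 to 26.3 against 18.8 to 29.0 FPKM for 8 endothelial markers, mostly Tek, and 7.33 to 12 against 9.20 to 12.1 FPKM for 8 macrophage and leukocyte markers. Cardiomyocyte markers summed to 2.69 to 5.17 against 3.79 to 5.01 FPKM, Schwann cell markers to 7.67 to 8.60 against 6.78 to 8.14 FPKM and fibroblast markers to 9110 to 11000 against 9880 to 14200 FPKM. None of the markers was at 0 in all libraries.

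**Figure D4:**
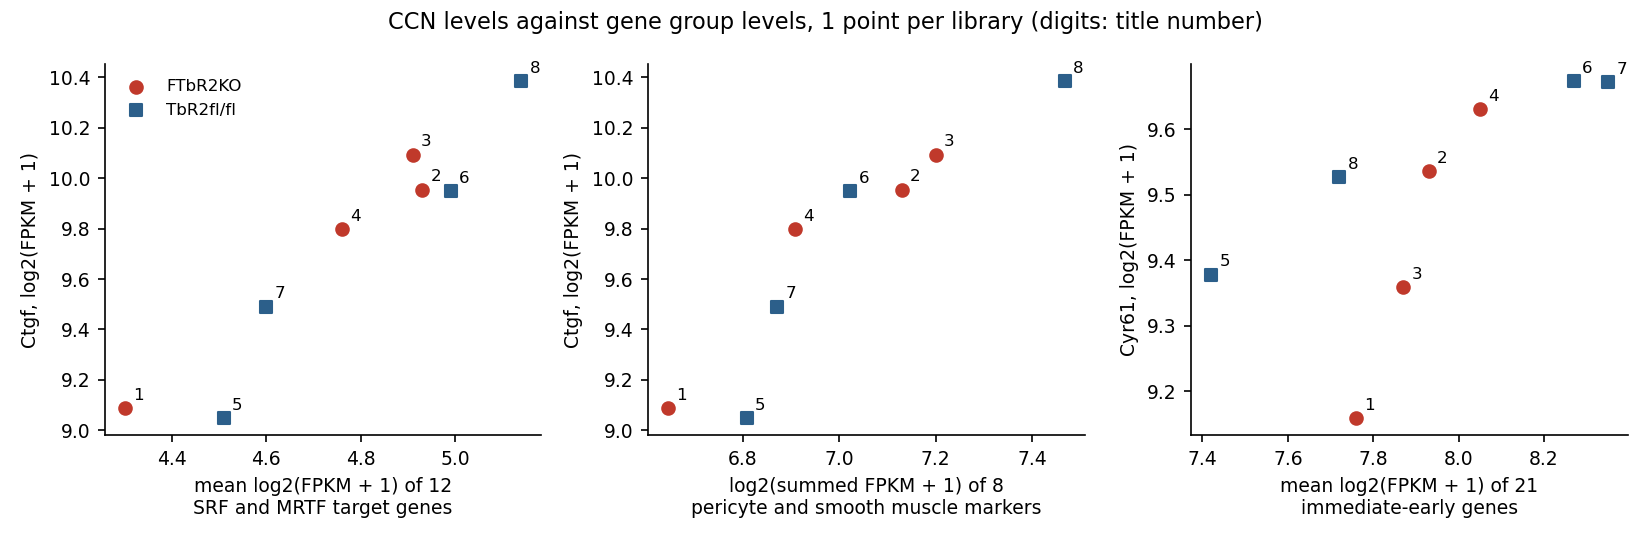
Log2(FPKM + 1) of Ctgf or Cyr61 (vertical axes) against the level of a gene group in the same library (horizontal axes), 1 point per library with its title number. Ctgf rises with the SRF and MRTF targets (r = 0.958) and with the pericyte and smooth muscle marker sum (r = 0.922); Cyr61 against the immediate-early genes is looser (r = 0.702).

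The single genes whose pattern was most like each member's were ranked by Pearson's r of log2(FPKM + 1) over the 8 libraries, among 10402 protein-coding genes. For Ctgf these were Actn4 (0.994), which encodes an actin-crosslinking α-actinin, the small heat-shock protein Cryab (0.988), the activin antagonist Fstl3 (0.988) and the chemokine Cx3cl1 (0.987). Actn4 measured 48.3, 69.3, 69.1 and 63.7 FPKM in FTbR2KO and 48.5, 66.0, 56.4 and 76.3 FPKM in the controls. Its r was 0.981 without FTbR2KO 1 and TbR2fl/fl 5. For Wisp1 the leading genes were Rnf181 (0.990), Cgref1 (0.983), Abcb10 (0.981) and Ptk7 (0.978), the last a Wnt-pathway co-receptor. Wisp2 was most like Slc44a2 (0.964), Itgbl1 (0.950), Polr3b (0.948) and the Wnt receptor Fzd5 (0.943). Cyr61 was most like Fbxl14 (0.976), B4galnt1 (0.974), Fam104a (0.965) and Cacfd1 (0.964). For Nov they were Tax1bp1 (0.980), Zfr (0.972), Ppp4r3b (0.969) and Tirap (0.969). These genes were picked as the highest of many, so the values describe likeness and carry no test.

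The genes around the family were compared between genotypes in the same fit, and 0 of the 107 genes tested in the 8 lists passed the limma threshold. Nor did any by voom on the recovered reads. At an unadjusted limma p under 0.05, 5 of them were higher in FTbR2KO (Lrp6, Igf1, Smad3, Rbms3 and Tgfb2) and 2 lower (Tead2 and Col1a1). That is 6.54% of the list genes, against 8.61% of all tested genes. Of the 107 genes only Lrp6, Rbms3 and Col1a1 had groups that did not overlap, which was found in 4.41% of all tested genes. Of all tested genes, 48.8% had a fold change above 0 and the median was -0.0045 on the log2 scale. Of the 14 receptors and co-receptors 11 were tested, 7 above 0 and 4 below, with a median log2 fold change of 0.07. Lrp6, the co-receptor through which several CCN proteins touch Wnt signalling, was 13.0 ± 1.14 FPKM in FTbR2KO and 10.7 ± 0.933 FPKM in the controls (SD, n = 4). Its 4 FTbR2KO libraries, at 12 to 14.6 FPKM, were all above the controls at 9.61 to 11.9 FPKM, with a limma adjusted p of 0.571. Itgb1 was close to equal, 294 ± 47.6 and 281 ± 56.2 FPKM.

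Of 12 extracellular partners 11 were tested, 8 above 0 and 3 below, with a median of 0.16. The growth factor Igf1 measured 32.8 ± 4.19 FPKM in FTbR2KO and 27.4 ± 2.57 FPKM in the controls, and the groups overlapped (limma adjusted p = 0.581). Vegfa, the angiogenic factor that Ctgf binds, measured 23.3 ± 4.75 and 18.4 ± 4.49 FPKM (limma adjusted p = 0.634).

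Among the transcriptional regulators 14 of 15 genes were tested, 10 above 0 and 4 below, with a median of 0.07. Of the coactivators, Yap1 measured 10.6 ± 0.174 FPKM in FTbR2KO and 10.5 ± 0.288 FPKM in the controls, and Wwtr1, which encodes TAZ, 43.3 ± 2.44 and 39.8 ± 4.19 FPKM. The MRTF genes Mkl1 and Mkl2 had log2 fold changes of -0.04 and 0.18 (limma adjusted p = 0.910 and 0.658). Srf itself measured 19.8 ± 2.47 and 18.9 ± 0.688 FPKM. The smallest unadjusted p belonged to Tead2, a DNA-binding partner of YAP, at 4.84, 4.21, 4.61 and 5.18 FPKM in FTbR2KO and 6.60, 7.01, 6.01 and 5.05 FPKM in the controls. Only TbR2fl/fl 8 lay within the FTbR2KO range, and the log2 fold change of -0.32 (SE 0.10) had a limma adjusted p of 0.571. Smad3, a TGF-β signal transducer, measured 17.2 ± 1.60 and 13.4 ± 2.08 FPKM with the same adjusted p.

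The other YAP and TEAD targets, 18 of 20 tested, had 12 above 0, 6 below and a median of 0.06. Rbms3, an RNA-binding protein gene, was 12.4, 13.0, 11.5 and 10.8 FPKM in FTbR2KO and 9.63, 8.80, 9.36 and 8.67 FPKM in the controls. The groups did not overlap, as for 4.41% of all tested genes, and the log2 fold change was 0.35 (SE 0.08, limma adjusted p = 0.571). Tgfb2, a TGF-β ligand, measured 15.7, 19.4, 15.9 and 11 FPKM in FTbR2KO and 8.97, 9.74, 11.2 and 11.1 FPKM in the controls. As with Nov, FTbR2KO 4 lay among the controls (log2 fold change 0.53, SE 0.15, limma adjusted p = 0.571).

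The other 3 large lists had more genes below 0 than above, although on the TPM scale 8 of 12, 16 of 21 and 10 of 14 of their genes were above 0. Relative to the median of all genes on that scale, their medians were -0.07, -0.05 and -0.06. The SRF and MRTF targets, all 12 tested, had 4 above and 8 below with a median of -0.07, and Acta2 measured 212 ± 76.6 against 240.0 ± 109 FPKM (limma adjusted p = 0.930). Of the 21 immediate-early genes 6 were above and 15 below, with a median of -0.07. Jund, an AP-1 subunit, had the smallest p among them, at 228 ± 55.0 FPKM in FTbR2KO and 318 ± 79.0 FPKM in the controls (limma adjusted p = 0.581). Of the 14 TGF-β induced genes 5 were above and 9 below, with a median of -0.08. Col1a1, the main fibrillar collagen, measured 3496, 3931, 3800.0 and 4508 FPKM in FTbR2KO and 5112, 5338, 4682 and 4887 FPKM in the controls. The groups did not overlap, as for 4.41% of all tested genes, and the log2 fold change of -0.35 (SE 0.14) had a limma adjusted p of 0.571. Of 14 Wnt targets only 6 were detected well enough to test, 4 above and 2 below, and Axin2 stood at 1.15 ± 0.303 and 0.952 ± 0.299 FPKM.

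**Figure D5:**
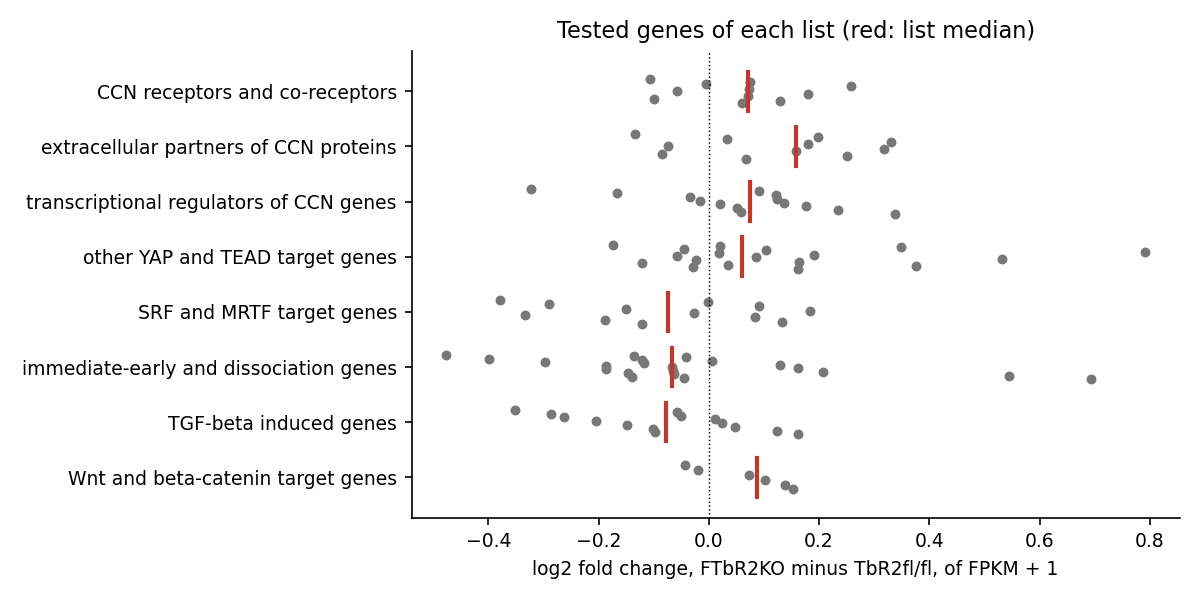
Log2 fold change of FPKM + 1, FTbR2KO minus TbR2fl/fl (horizontal axis), of the tested genes in 8 lists of CCN receptors, partners, regulators and co-regulated genes; red bars are list medians. The medians lie between -0.08 and 0.16, and no gene passed the threshold.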

How the data were processed

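Poly(A) RNA from PDGFRα-sorted fibroblasts was sequenced in 8 libraries, and the values used are the gene-level FPKM that the authors deposited, whose headers give names, coordinates and lengths. HTSeq 0.6.1, Cufflinks 2.1.1, TopHat2 2.0 and CASAVA are listed in the submitters' processing notes, with mm10 and GRCm38.p6 as builds. Their roles and the strand setting are not given in the sources used here. Each member's coordinates and exon length were the same in the GRCm38 annotation.

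FPKM times gene length came to whole multiples of 1 step per library for 100% of values (tolerance 0.01), so reads were recovered for depth and for 1 alternative, a voom fit that called 2 genes. The main test was limma 3.58.1 (R 4.3.3) on log2(FPKM + 1), its variance trended on the mean, with 4 against 4 libraries and no covariate. Benjamini-Hochberg adjustment was over 11667 genes. The code was run on simulated counts that were independent between genes and had a single dispersion. That setting lacks the shared variation between these libraries, so it does not show the error rate here. The log2 scale with a pseudocount of 1 understates changes of low genes. Single values and correlations used exact two-sided permutation tests in Python 3.11.15.

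The members, gene lists and markers were chosen with earlier results of these data known. Named were Tgfbr2, Pdgfra, the CCN genes, up to 3 genes per list with the smallest p, the 4 genes most like each member, and genes on which a stated correlation rests, the last added after their values were seen.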

Additional observations from a re-analysis of the deposited data

How the results depend on the processing

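Nov kept its sign under all 17 alternatives, and no member passed the threshold under any. Array weights turned Ctgf to -0.066 and Wisp2 to -0.015, TPM turned Cyr61 to 0.026 and Wisp1 to 0.034, and leaving out FTbR2KO 1 with TbR2fl/fl 5 turned Wisp2 to -0.0204. Leaving out single libraries gave fold changes of -0.21 to 0.24 for Ctgf and -0.11 to 0.21 for Wisp2, and differences in family share of -0.718 to 4.68 points for Ctgf and -0.472 to 1.31 for Wisp2. The cause was not tested. Genes past the threshold numbered 1 higher with a minimum of 5 FPKM, where fewer genes were tested, and 2 to 6 higher and 0 to 2 lower on leaving out single libraries, the most without FTbR2KO 4 (6 and 2). Without FTbR2KO 1 and TbR2fl/fl 5, with 6 libraries left, r was -0.59, -0.0624 and -0.4 for Cyr61 with Ctgf, Wisp1 and Wisp2, 0.779 for Ctgf with Wisp1, 0.69, 0.949 and 0.944 for Ctgf with the receptors, the SRF and MRTF targets and the pericyte and smooth muscle markers, and 0.758 and 0.694 for Wisp1 with the SRF and MRTF targets and the TGF-β induced genes. Centring turned Nov with Wisp1 to 0.225. On leaving out single libraries r ranged from 0.799 to 0.921 for Ctgf with Wisp1, -0.116 to 0.344 for Cyr61 with Wisp2, -0.137 to 0.116 for Nov with Wisp1 and -0.021 to 0.633 for Nov with Wisp2. For Ctgf it ranged from 0.864 to 0.945 with the receptors, 0.94 to 0.979 with the SRF and MRTF targets and 0.889 to 0.957 with the pericyte and smooth muscle markers, and for Wisp1 from 0.817 to 0.924 and 0.715 to 0.883 with its lists. The single-library fits for gene lists and markers, and the marker relations, were chosen after seeing the data. Median-of-ratios factors were 1 in each library, so that scaling gave the same values. No paired analysis was possible because the groups share no title numbers. With 4 libraries per group the interval of Ctgf spans up to 0.72 on the log2 scale on one side of 0, and that of Nov reaches farther above 0.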
